A study of Mus musculus with 12 samples.

Results

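The 10 genes Clec4f, Timd4, Marco, Cd5l, Vsig4, Adgre1, Folr2, C1qa, Trem2, and Gpnmb mark the macrophages of the liver and of its tumors. They were taken by symbol from the 24421 genes counted in each library, and all 10 passed the filter on low counts in every comparison. Poly(A) RNA had been sequenced from 6 liver tumors and 6 non-tumoral livers of mice fed a standard diet, which the study describes as aged over 18 months. The p21Tert mice carry Tert, the catalytic subunit of telomerase, under the promoter of Cdkn1a (p21), and gave 3 tumors named as carcinomas, T-HCC663, T-HCC662, and T-HCC941, 1 named as an adenoma, T-HCA992, and 4 livers. The study's histology diagnoses T-HCC663 as an adenoma, against its name. The p21TertCi mice carry a catalytically inactive Tert under the same promoter and gave TCi-HCC981, TCi-HCA984, and 2 livers. Every liver here carries one of these alleles, and no liver without them was compared. Each tumor is 1 library of bulk tissue, so its macrophages cannot be told apart from its other cells. By the mutations the study gives, T-HCC663 and T-HCC662 are Ctnnb1-mutated, T-HCC941 is Egfr-mutated, TCi-HCC981 is Hras-mutated, and the adenomas T-HCA992 and TCi-HCA984 carry none of these and are called driver-negative. The p21Tert liver whose label holds a number that no tumor carries was taken by elimination as that of the T-HCC662 mouse. Mice are named by their tumors.

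Kupffer cells are the resident macrophages of the liver. They sit in the sinusoids, take up blood-borne particles and dying cells, and hold their identity through signals from endothelial and stellate cells. Macrophages that take up lipid and debris in injured liver, fat tissue, and tumors are known to raise Trem2, a lipid-sensing receptor, and Gpnmb, a glycoprotein tied to lysosomal load. In bulk RNA, fewer cells of a type and less RNA of a gene per cell cannot be told apart.

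Livers had from 14571716 to 23932529 counts on genes and tumors from 17471387 to 26170661. CPM below means counts per 1000000 after scaling by edgeR's TMM method. Adjusted p-values are from edgeR's quasi-likelihood test with Benjamini-Hochberg adjustment over all genes tested, at a threshold of 0.05. The label of liver tissue was checked on 6 hepatocyte genes, whose summed level lay between 28980 and 53361 CPM in the livers and between 15888 and 93652 CPM in the tumors. The liver of the TCi-HCC981 mouse stood apart in immune genes. Its 16 general macrophage genes summed to 1632 CPM, where the median liver had 362 CPM, and its 9 dendritic cell genes to 1255 CPM, where the median liver had 114 CPM. The tumor of the same mouse had 1913 and 1296 CPM on these lists. Cd74 (823 CPM in that liver and 913 CPM in the tumor) and H2-Ab1 (404 and 353 CPM) made up most of both dendritic cell sums. These sums alone therefore do not show an excess of dendritic cells.

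Against the 6 livers, the 6 tumors carried more Gpnmb, and the resident markers differed tumor by tumor. Gpnmb was the 1 member of 10 past the threshold over all tumors, where 10.8% of the 13822 genes tested were called. In 5 of the 6 tumors each of the 6 resident markers (Clec4f, Timd4, Marco, Cd5l, Vsig4, and Folr2) was below its level in the mouse's own liver, and in T-HCC663 each was above it. How many of all genes share this pattern was not counted. Clec4f, Timd4, Vsig4, and Folr2 also moved together over the libraries, so they are not separate results. The median log2 fold change of the 10 members was -0.10, and that of all genes 0.02. No member had every tumor below every liver, as 2.18% of genes did, or every tumor below its own liver, as 11.5% did. With the mouse as a block, 4 of the 10 members were called, and 15.7% of genes. T-HCC662 and T-HCC663, which share the Ctnnb1 class, thus lay on opposite sides of their own livers for the resident markers.

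**Figure D1:**
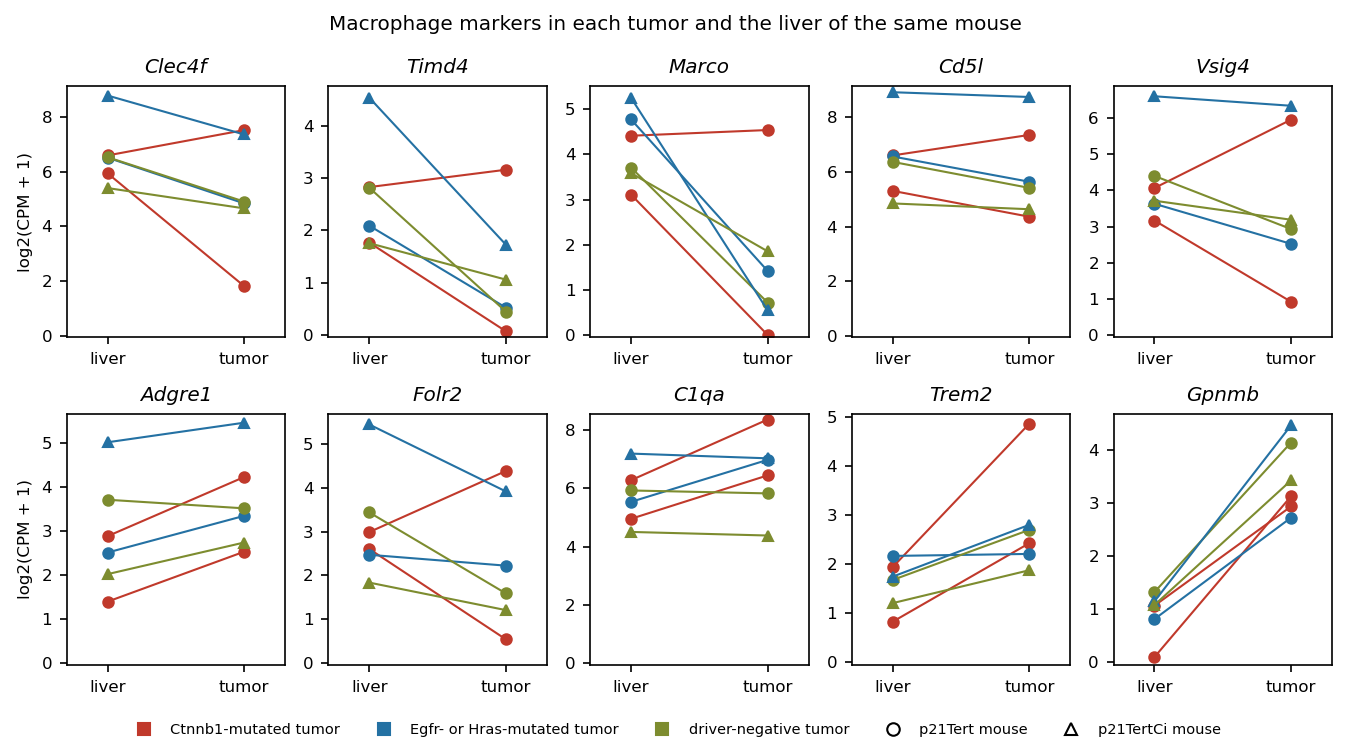
Level of each of the 10 markers as log2(CPM + 1) in the liver and the tumor of each of 6 mice, joined by a line. Colors give the driver class of the tumor and symbols the genotype. Gpnmb ran upward in all 6 mice, and the lines of Clec4f, Timd4, Marco, Cd5l, Vsig4, and Folr2 ran downward in all but T-HCC663.

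Clec4f encodes a C-type lectin that in mouse liver is made by Kupffer cells. In each tumor and its own liver it stood at 182 CPM against 95.5 CPM in T-HCC663, 2.52 against 60.4 in T-HCC662, 27.6 against 90.3 in T-HCC941, 163 against 439 in TCi-HCC981, 29.0 against 91.3 in T-HCA992, and 24.3 against 41.2 in TCi-HCA984. Clec4f was thus lowest in T-HCC662, 23.9-fold below its own liver, and 1.91-fold above its own liver in T-HCC663. The other 4 tumors were 1.70-fold (TCi-HCA984) to 3.27-fold (T-HCC941) below their own livers. The groups overlapped, and edgeR gave a log2 fold change over all tumors of -0.93 (SE 0.84, adjusted p = 0.526). It was -0.083 without the liver of the TCi-HCC981 mouse, -0.53 without both libraries of that mouse, and -1.49 without T-HCC663.

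Timd4 encodes a phosphatidylserine receptor for dying cells and marks long-lived Kupffer cells. Tumor and own liver held 7.98 CPM against 6.12 CPM in T-HCC663, 0.0451 against 2.40 in T-HCC662, 0.432 against 3.26 in T-HCC941, 2.31 against 22.4 in TCi-HCC981, 0.358 against 6.06 in T-HCA992, and 1.08 against 2.37 in TCi-HCA984. The T-HCC662 value is 1 count, against 34 counts in its liver, a ratio of 53.3 with a 95% exact interval from 8.94 to 2167 that covers counting error only. T-HCC663 alone lay within the range of the livers, and the other 5 tumors lay below every liver. The log2 fold change over all tumors was -1.80 (SE 0.93, adjusted p = 0.24 in edgeR). With the mouse as a block it was -2.56 (adjusted p = 0.0467 in edgeR), and without T-HCC663 it was -3.09 (adjusted p = 0.0397 in edgeR). Without the liver of the TCi-HCC981 mouse Timd4 was at -0.99 (adjusted p = 0.508 in edgeR), and without both libraries of that mouse at -1.05.

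Marco, a scavenger receptor that binds bacteria and particles, had no count in T-HCC662. Tumor and own liver were at 22.3 CPM against 20.3 CPM in T-HCC663, 0 against 7.63 in T-HCC662, 1.67 against 26.4 in T-HCC941, 0.462 against 37.1 in TCi-HCC981, 0.645 against 12.1 in T-HCA992, and 2.61 against 11.0 in TCi-HCA984. Here too T-HCC663 alone lay among the livers. Set against a floor of 3 counts in that library, Marco was at least 56.4-fold lower in T-HCC662 than in its liver, and it was 80.3-fold lower in TCi-HCC981. The log2 fold change over all tumors was -2.05 (SE 1.02, adjusted p = 0.224 in edgeR). With the block it was -3.69 (adjusted p = 0.0383 in edgeR), and -4.17 without T-HCC663 (adjusted p = 0.00708 in edgeR). Without both libraries of the TCi-HCC981 mouse Marco was at -1.53 (adjusted p = 0.422 in edgeR).

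Cd5l, a secreted scavenger protein controlled by liver X receptor, differed less. Its levels were 162 CPM against 96.1 CPM in T-HCC663, 19.5 against 38.5 in T-HCC662, 48.8 against 93.5 in T-HCC941, 427 against 481 in TCi-HCC981, 41.6 against 81.4 in T-HCA992, and 23.8 against 27.7 in TCi-HCA984. For Cd5l no tumor lay more than 1.97-fold below its own liver. Its share of the summed resident level was 28.6% to 43.0% in the livers and 35.6% (T-HCC663) to 83.3% (T-HCC662) in the tumors.

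Vsig4, the complement receptor with which Kupffer cells catch opsonized bacteria, ranged in the livers from 7.98 to 95.7 CPM with a median of 13.9 CPM, and in the tumors from 0.901 CPM in T-HCC662 to 79.6 CPM in TCi-HCC981 with a median of 7.37 CPM. Folr2, the folate receptor of tissue macrophages, ranged from 2.57 to 42.9 CPM with a median of 6.02 CPM in the livers and from 0.451 CPM in T-HCC662 to 20.0 CPM in T-HCC663 with a median of 2.84 CPM in the tumors. For both genes T-HCC662 was the lowest of the 12 libraries, 8.86-fold (Vsig4) and 11.3-fold (Folr2) below its own liver, and T-HCC663 was above its own liver, 3.86-fold and 2.87-fold. The log2 fold changes over all tumors were -0.02 for Vsig4 (SE 0.93), -0.79 for Folr2 (SE 0.88), and -0.18 for Cd5l (SE 0.84). Their adjusted p-values in edgeR lay between 0.614 and 0.991. Without the liver of the TCi-HCC981 mouse these values turned positive, at 0.99, 0.25, and 0.84.

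Adgre1 encodes F4/80, a surface receptor of most mouse macrophages, and C1qa a chain of complement C1q that macrophages make. Adgre1 was at 17.8 CPM against 6.38 CPM in T-HCC663, 4.78 against 1.62 in T-HCC662, 9.18 against 4.70 in T-HCC941, 43.4 against 31.5 in TCi-HCC981, 10.5 against 12.1 in T-HCA992, and 5.68 against 3.05 in TCi-HCA984. It was higher than in the own liver in 5 of 6 tumors and 1.16-fold lower in T-HCA992. C1qa was at 325 CPM against 76.3 CPM in T-HCC663, 85.7 against 29.95 in T-HCC662, 124 against 45.3 in T-HCC941, 129 against 144 in TCi-HCC981, 55.6 against 59.6 in T-HCA992, and 19.8 against 21.7 in TCi-HCA984. It was 2.75-fold to 4.26-fold above the own liver in T-HCC662, T-HCC663, and T-HCC941, and 1.07-fold to 1.12-fold below it in the other 3. Neither passed the test over all tumors, with log2 fold changes of 0.61 for Adgre1 (SE 0.70, adjusted p = 0.628 in edgeR) and 0.97 for C1qa (SE 0.59, adjusted p = 0.32 in edgeR). T-HCC662 thus held more Adgre1 and C1qa than its liver beside less of all 6 resident markers. That liver, paired by elimination, had the lowest Adgre1 of the livers, and T-HCC662 had the lowest of the tumors. Against the median of the livers, T-HCC662 was lower for Adgre1 (4.78 against 5.54 CPM) and higher for C1qa (85.7 against 52.5 CPM).

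Trem2 was at 28.0 CPM against 2.84 CPM in T-HCC663, 4.37 against 0.777 in T-HCC662, 3.62 against 3.49 in T-HCC941, 5.96 against 2.35 in TCi-HCC981, 5.48 against 2.20 in T-HCA992, and 2.67 against 1.31 in TCi-HCA984. It was higher than in the own liver in all 6 mice, by 9.86-fold in T-HCC663, 5.62-fold in T-HCC662, 2.04-fold to 2.53-fold in 3 others, and 1.04-fold in T-HCC941. TCi-HCA984 lay within the range of the livers. The log2 fold change over all tumors was 1.95 (SE 0.59), with an adjusted p of 0.0502 in edgeR, just outside the threshold. With the block it was 1.57 (adjusted p = 0.0419 in edgeR), and 1.02 without T-HCC663 (adjusted p = 0.101 in edgeR).

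Gpnmb was at 6.66 CPM against 1.10 CPM in T-HCC663, 7.75 against 0.0706 in T-HCC662, 5.61 against 0.758 in T-HCC941, 21.1 against 1.22 in TCi-HCC981, 16.7 against 1.503 in T-HCA992, and 9.77 against 1.11 in TCi-HCA984. Each tumor was above each liver, a separation that 2.93% of the genes tested showed in this direction and no other member did. The tumors had a mean of 11.3 ± 6.23 CPM (SD, n = 6) and the livers of 0.96 ± 0.497 CPM (SD, n = 6), and edgeR put the log2 fold change at 3.53 (SE 0.52, adjusted p = 0.00193). Leaving out any 1 library kept it between 3.24 and 3.70 and past the threshold. Without both libraries of the TCi-HCC981 mouse it was 3.32 (adjusted p = 0.0069 in edgeR). Gpnmb was 6.08-fold (T-HCC663) to 17.3-fold (TCi-HCC981) above the own liver in 5 mice. The liver of the T-HCC662 mouse held 1 count against 172 in its tumor, a ratio of 110 with a 95% exact interval from 19.4 to 4358. Trem2 and Gpnmb were the 2 members above the own liver in every mouse, as were 11% of all genes tested.

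**Figure D2:**
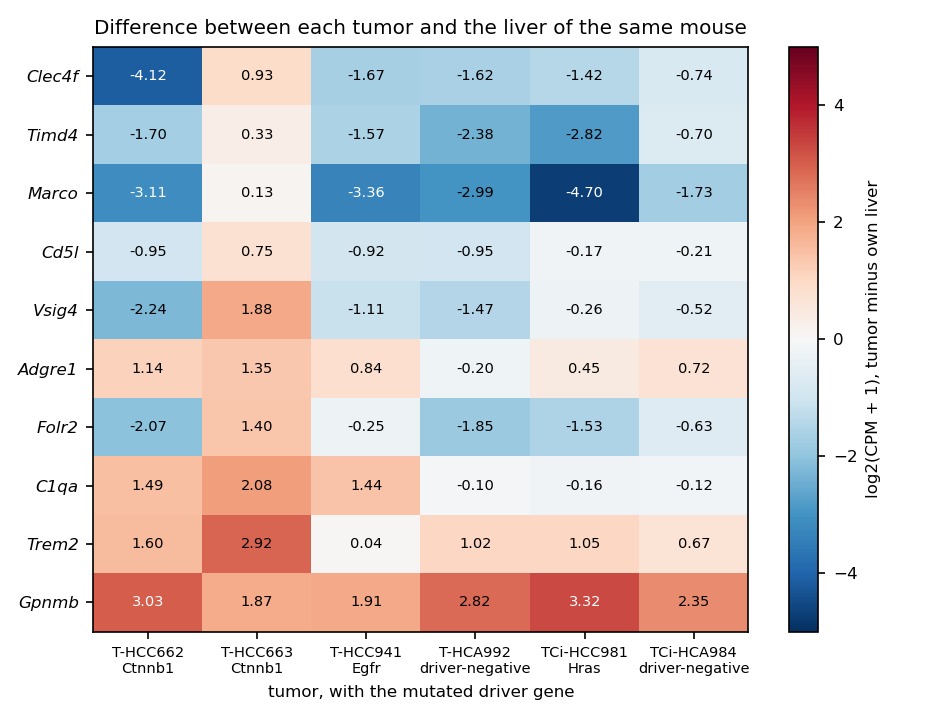
Difference in log2(CPM + 1) between each tumor and the liver of the same mouse for the 10 markers, with red for higher and blue for lower in the tumor. The column of T-HCC663 is above 0 throughout, and the lowest value, -4.70, belongs to Marco in TCi-HCC981.

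All 10 members lie on GRCm38, the mm10 build, at chr6:83644542-83656187 (Clec4f), chr11:46810800-46844332 (Timd4), chr1:120474538-120505024 (Marco), chr3:87357881-87371073 (Cd5l), chrX:96247203-96293438 (Vsig4), chr17:57358691-57483527 (Adgre1), chr7:101839988-101857194 (Folr2), chr4:136895917-136898803 (C1qa), chr17:48346401-48354147 (Trem2), and chr6:49036546-49070929 (Gpnmb). The values count reads over exons, and no other annotated gene aligned to a member's transcripts at 90% identity over 200 bases or more. An exon of Folr2 overlaps Gm10602 on the opposite strand, and since the strand setting of the counting is not given, reads of the pair cannot be told apart. Per 1000 bases of annotated exon, the highest median levels in the livers were those of C1qa (50.4 CPM per kb), Cd5l (43.0), and Clec4f (36.7), and the lowest those of Trem2 (0.460) and Gpnmb (0.170). In the tumors the median was 101 CPM per kb for C1qa, 11.5 for Clec4f, and 1.34 for Gpnmb. Timd4 and Marco, at 2.15 and 8.41 in the livers, were at 0.348 and 0.602 in the tumors, below Gpnmb, though the ranges of the libraries overlapped.

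RefSeq promoter windows on GRCm38.p6 were held for 8 of the 10 members, 9 windows in all, and the 250 bases before each start were searched on both strands for 7 letter strings, none of which is contained in another, though TGCTGA and TGAGTCA can share letters. TGCTGA was in 5 of the 9 windows, those of Clec4f, Timd4, Cd5l, and both of Folr2, and in 16.1% of all 32851 windows. GAGGAA, the core bound by PU.1, was in those of Marco, Vsig4, Cd5l, and Trem2, and in 23.3% of all. AGGTCA, the core bound by nuclear receptors, was found for Clec4f, Timd4, and Trem2 (14% of all windows), TGGGAA, the core of Rbpj sites, for Clec4f and Marco (21.6%), CATGTG, an E-box, for Folr2 and Timd4 (12.3%), TGAGTCA, the AP-1 site, for Folr2 (4.46%), and CACGTG, another E-box, for none (6.02%). The Gpnmb window held none of the 7 strings, which says only that these letters are not in it. The stretches below show 1 occurrence of TGCTGA or GAGGAA each for resident markers that were lower in 5 tumors and for Trem2. That occurrence is in capitals and in the direction of the gene, so that TCAGCA and TTCCTC are the strings read on the opposite strand. The Cd5l stretch holds TTCCTC and TCAGCA as well, in lower case, and the windows of Timd4 and Vsig4 hold a further occurrence outside the stretch shown. They lie at chr6:83656298-83656327 (minus strand, Clec4f), chr11:46810743-46810772 (plus strand, Timd4), chr3:87357815-87357844 (plus strand, Cd5l), chr7:101845333-101845362 (minus strand, Folr2), chr1:120505153-120505182 (minus strand, Marco), chrX:96293474-96293503 (minus strand, Vsig4), and chr17:48346349-48346378 (plus strand, Trem2).
Clec4f: gattgcagacccTGCTGAagggggttgggt
Timd4: cgtcccaccctgTCAGCAggaattgtgata
Cd5l: ttcctctggccaTGCTGAactcagcacatc
Folr2: gaagaaagcaagTGCTGAatggggatattt
Marco: tgaagtgggtcaGAGGAAgatttcctgggg
Vsig4: ggggaagtgtgtGAGGAAactaggattctg
Trem2: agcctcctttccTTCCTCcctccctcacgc

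To set resident markers against Trem2 and Gpnmb, the CPM of each group were summed per library, as a description without a test. The 6 resident markers summed to 456 CPM against 241 CPM in the own liver for T-HCC663, 23.4 against 122 for T-HCC662, 87.0 against 229 for T-HCC941, 687 against 1119 for TCi-HCC981, 80.2 against 221 for T-HCA992, and 61.2 against 97.0 for TCi-HCA984. The sum was 5.21-fold below the own liver in T-HCC662, 1.59-fold to 2.75-fold below it in 4 tumors, and 1.89-fold above it in T-HCC663. Divided by the sum of Trem2 and Gpnmb, it was between 40.04 and 313 in the livers and between 1.93 (T-HCC662) and 25.4 (TCi-HCC981) in the tumors. The groups did not overlap in this ratio, nor in its divisor alone, which was at most 4.25 CPM in the livers and at least 9.23 CPM in the tumors. How many other gene sets separate in this way was not counted. T-HCC663, where the resident markers were high, was at 13.2 against 61.2 in its liver. Its resident sum was above that of its liver, so its lower ratio comes from the divisor. The highest tumor ratio and the highest liver ratio both belonged to the TCi-HCC981 mouse.

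**Figure D3:**
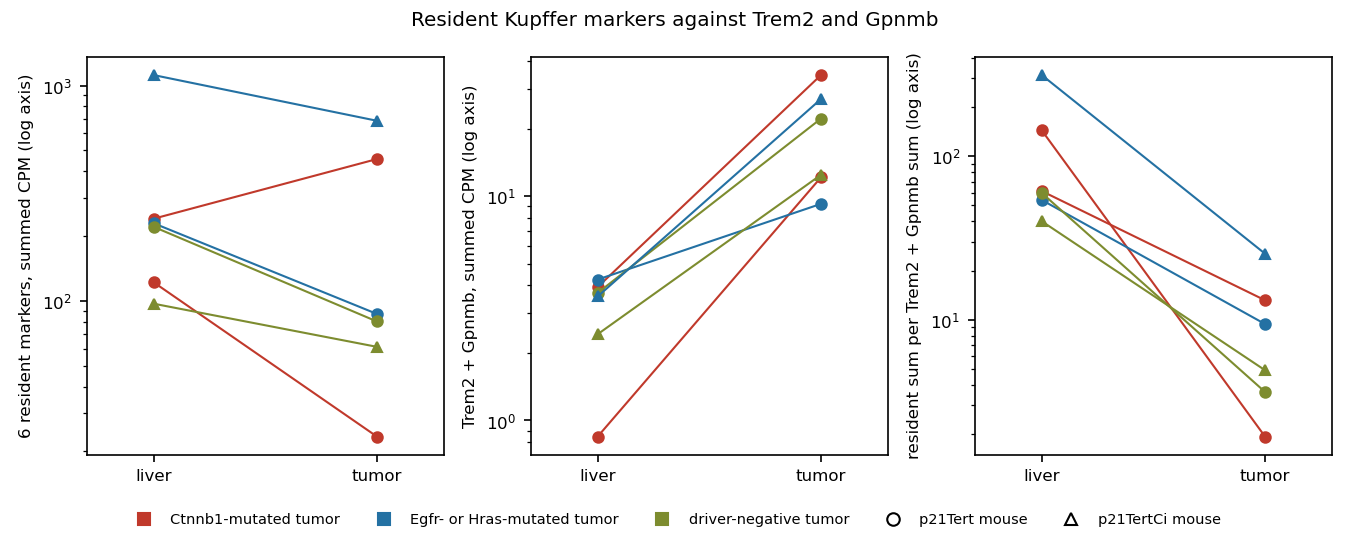
Summed CPM of the 6 resident Kupffer markers, summed CPM of Trem2 and Gpnmb, and the ratio of the sums, in the liver and the tumor of each of 6 mice on log axes. In the right panel the tumors (1.93 to 25.4) lie below the livers (40.04 to 313). In the middle panel, the divisor of that ratio, the tumors lie above the livers.

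Because whole-tissue levels move with the amount of macrophage RNA, each member was also set against Csf1r, the receptor for macrophage growth factor, in the same library. This ratio was chosen after values had been seen. Csf1r itself was at 0.15 over all tumors on the log2 scale (SE 0.69, adjusted p = 0.918 in edgeR). Per 100 counts of Csf1r, tumor and own liver had 7.56 and 16.8 counts of Timd4 in T-HCC663, 0.2 and 12.6 in T-HCC662, 1.10 and 12.4 in T-HCC941, 1.27 and 9.97 in TCi-HCC981, 0.991 and 12.5 in T-HCA992, and 3.59 and 12.3 in TCi-HCA984. Every tumor was below every liver, the high liver of the TCi-HCC981 mouse and T-HCC663 included. The ratio of Clec4f did not overlap either, at 189 to 343 in the livers and 11.2 (T-HCC662) to 173 (T-HCC663) in the tumors. Of all genes tested, 0.0506% had every tumor below every liver on this scale. Csf1r ranged from 19.0 to 225 CPM in the livers, and this spread enters the ratio of every gene that does not vary with it. The shares over all genes are therefore no background for macrophage genes. Gpnmb had every tumor above every liver, at 6.31 (T-HCC663) to 46.1 (T-HCA992) against 0.372 to 5.79, as 0.564% of the genes did. Marco (16.5 to 100.3 in the livers and 0 to 21.1 in the tumors) and Trem2 (1.05 to 13.3 and 3.27 to 26.5) overlapped between the groups.

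**Figure D4:**
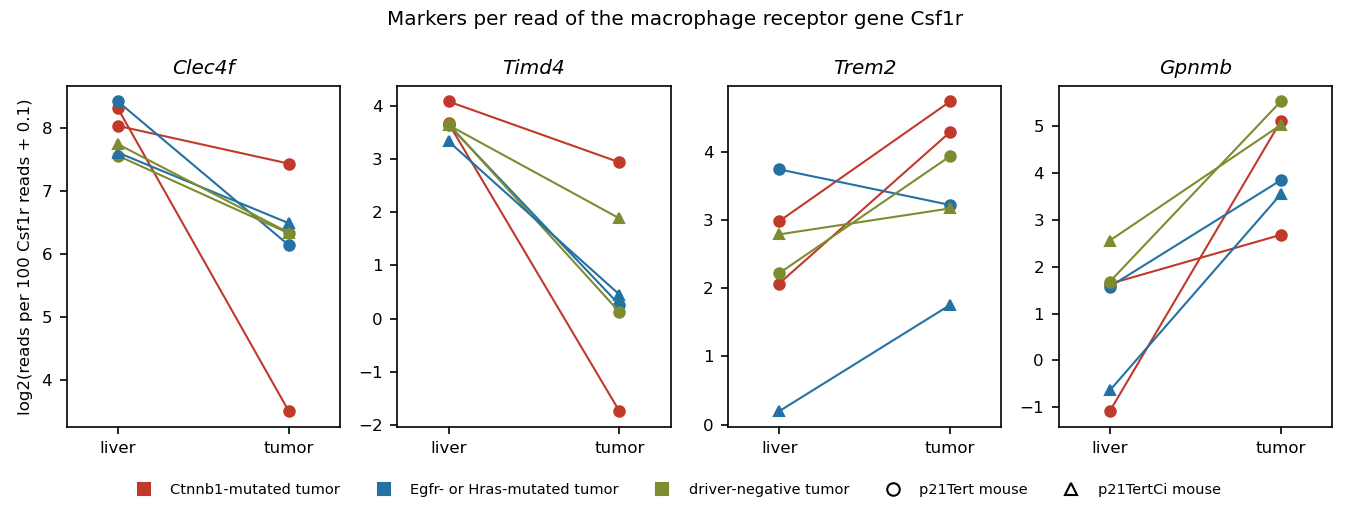
Clec4f, Timd4, Trem2, and Gpnmb per 100 counts of Csf1r, as log2(ratio + 0.1), in the liver and the tumor of each of 6 mice. All tumors lie below all livers for Clec4f and Timd4 and above them for Gpnmb, and Trem2 overlaps.

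When the library size was replaced by a factor from 16 general macrophage genes, also chosen after values had been seen, Marco (log2 fold change -3.30, adjusted p = 0.000324 in edgeR), Timd4 (-2.66, adjusted p = 0.0101 in edgeR), and Gpnmb (2.78, adjusted p = 0.00609 in edgeR) were called over all tumors. Trem2 was at 0.73 there (adjusted p = 0.395 in edgeR). That scaling moved the median log2 fold change of all genes to -0.96, against 0.02 with TMM, so the members' values on it are relative to macrophage genes.

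By driver class against the livers, edgeR called Trem2 (higher) in the Ctnnb1-mutated tumors, Marco (lower) in the others, and Gpnmb (higher) in both. Between the classes it called no member, so these calls do not show that the classes differ. In the Ctnnb1-mutated tumors (n = 2), 2 of the 10 members were called, where 8.23% of 15182 genes were. In edgeR Trem2 rose by 2.90 on the log2 scale (SE 0.59, adjusted p = 0.0134) and Gpnmb by 2.88 (SE 0.60, adjusted p = 0.0152). The median log2 fold change of the 10 members was -0.03, and that of all genes -0.01. Trem2 rested on T-HCC663, without which it was at 1.00 (adjusted p = 0.504 in edgeR) and the 1 member called was Marco, lower, which had no count in the remaining tumor. Without T-HCC662 or T-HCC663 Gpnmb was at 2.77 or 2.97 (adjusted p = 0.0835 or 0.0547 in edgeR). C1qa was at 1.71 (SE 0.62, adjusted p = 0.119 in edgeR) and was called by edgeR with the block (1.81, adjusted p = 0.0435) and without both libraries of the TCi-HCC981 mouse (2.12, adjusted p = 0.0444). The 6 resident markers had SEs from 1.12 to 1.26 in this class, and T-HCC662 lay below its own liver and T-HCC663 above it for each of them.

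In the other tumors (n = 4), 2 of the 10 members were called, where 22.7% of genes were, and the members' median log2 fold change was -0.63 beside -0.02 for all genes. Gpnmb rose by 3.76 (SE 0.54, adjusted p = 0.000849 in edgeR), and Marco fell by 3.87 on the log2 scale (SE 1.12, adjusted p = 0.0289 in edgeR). Marco was not past the threshold without the liver of the T-HCC941 mouse (adjusted p = 0.0513 in edgeR), without any 1 of the 4 tumors (adjusted p from 0.0585 to 0.124 in edgeR), or without both libraries of the TCi-HCC981 mouse (log2 fold change -3.26, adjusted p = 0.133 in edgeR). Timd4 was at -2.85 (SE 1.09, adjusted p = 0.0801 in edgeR) and Trem2 at 1.04 (SE 0.52, adjusted p = 0.172 in edgeR). Without T-HCC662 or T-HCC663, Timd4 was called (-2.86 each, adjusted p = 0.0315 and 0.0313 in edgeR). Without the liver of the TCi-HCC981 mouse Timd4 was at -2.03 (adjusted p = 0.147 in edgeR).

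With Ctnnb1-mutated and other tumors tested against each other, edgeR called 0 of the 10 members, where 12.6% of genes were called. DESeq2 called Trem2 there (1.85, adjusted p = 0.044). At an unadjusted p under 0.05, 30.3% of genes passed in edgeR. Trem2 was higher in the Ctnnb1 class by a log2 value of 1.87 (SE 0.66, adjusted p = 0.0813 in edgeR), Marco by 3.09 (SE 1.24, adjusted p = 0.118 in edgeR), Timd4 by 2.02 (SE 1.26, adjusted p = 0.302 in edgeR), and C1qa by 1.57 (SE 0.69, adjusted p = 0.148 in edgeR), and Gpnmb was at -0.88 (SE 0.70, adjusted p = 0.426 in edgeR). T-HCC663 decided these values, for without it Trem2 was at -0.022, Timd4 at -4.27, and Marco at -7.65, the last against a tumor with no Marco count, so that its size depends on the prior count. Without T-HCC662, Marco and Trem2 were called (4.09 and 2.66, adjusted p = 0.0227 and 0.0426 in edgeR). Between the Egfr- or Hras-mutated (n = 2) and the driver-negative tumors (n = 2) no member was called in edgeR or DESeq2, and 0% of genes were in edgeR, with 8.5% at an unadjusted p under 0.05. The largest of these values were 2.86 for Cd5l (SE 1.43, adjusted p = 0.601 in edgeR) and 2.52 for Vsig4 (SE 1.65, adjusted p = 0.668 in edgeR), both higher in the first class, which holds TCi-HCC981, and without that tumor Cd5l was at 0.54.

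**Figure D5:**
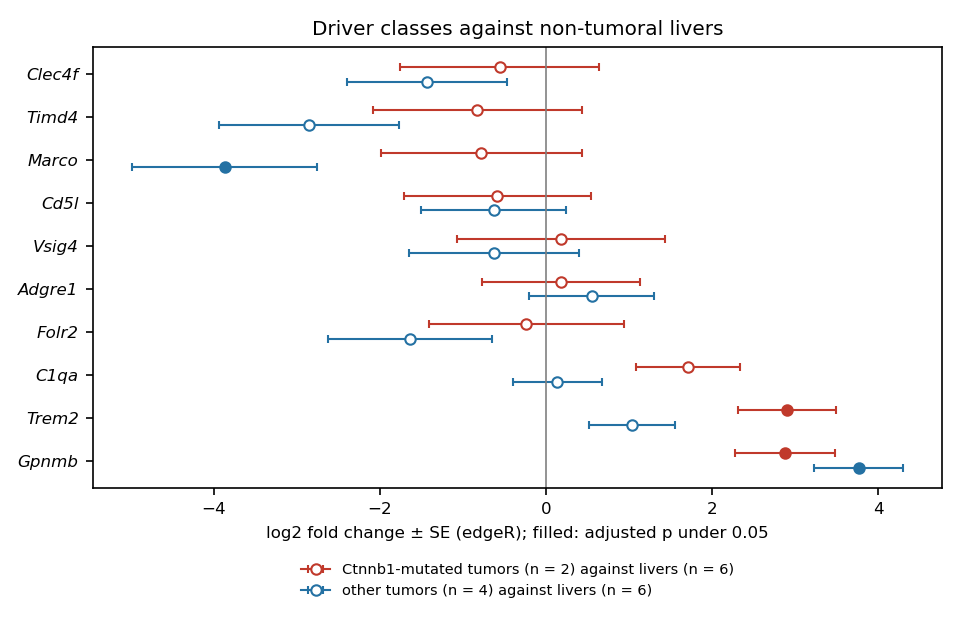
Log2 fold change with its SE for the 10 markers in Ctnnb1-mutated tumors (n = 2) and in the other tumors (n = 4), each against the 6 livers, from 1 edgeR model. Filled points passed the adjusted threshold, which were Trem2 and Gpnmb in the first class and Marco (lower) and Gpnmb in the second.

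By genotype, Gpnmb rose in p21Tert tumors against p21Tert livers (n = 4 each) by 3.39 (SE 0.66, adjusted p = 0.015 in edgeR), the 1 member called where 6.47% of genes were, and without the liver of the T-HCC941 mouse it was at 3.34 (adjusted p = 0.0501 in edgeR). Trem2 was at 2.15 (SE 0.72, adjusted p = 0.101 in edgeR), Timd4 at -1.02 (SE 1.15), and Marco at -1.43 (SE 1.24). Without T-HCC663, Timd4 and Marco were called at -3.99 and -4.46 (adjusted p = 0.0338 and 0.0417 in edgeR), and Trem2 was at 0.94 (adjusted p = 0.31 in edgeR). In p21TertCi tumors against p21TertCi livers (n = 2 each), 0 members were called in edgeR, where 0.00659% of genes were, and 10.7% passed at an unadjusted p under 0.05. Gpnmb was at 3.72 (SE 0.93, adjusted p = 0.219 in edgeR and 0.00146 in DESeq2), Marco at -3.97 (SE 1.96), Timd4 at -2.87 (SE 1.72), and Trem2 at 1.23 (SE 0.99). Single libraries moved these values. Without the liver of the TCi-HCC981 mouse Timd4 was at -0.48 and Marco at -2.84, without TCi-HCA984 Marco was at -5.68, without TCi-HCC981 Trem2 was at 0.54, and without both libraries of that mouse Gpnmb was at 3.11 and Marco at -2.09. The interaction term, which tests whether the genotypes differ in their tumor against liver change, called 0 members and 0% of genes in edgeR, with 3.71% at an unadjusted p under 0.05, and DESeq2 called 0 members. Marco had the largest value, -2.54 (SE 2.19, adjusted p = 1 in edgeR). Between the livers of the genotypes (n = 2 and n = 4) 0 members and 0% of genes were called in edgeR, with 4.85% at an unadjusted p under 0.05, and 0 members in DESeq2. Vsig4 was at 1.96 there (SE 1.28, adjusted p = 0.93 in edgeR), and at -0.15 without the TCi-HCC981 mouse.

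Other macrophage genes were read from lists. Of 12 lipid-associated macrophage genes, 5 rose over all tumors and 0 fell, with a median log2 fold change of 1.71 beside 0.02 for all genes. Mmp12, a macrophage elastase, was at 0.141 to 2.31 CPM in the livers and 5.65 to 36.3 CPM in the tumors (log2 fold change 3.69, SE 0.65, adjusted p = 0.00415 in edgeR). Lpl, the lipoprotein lipase, rose by 3.58 (SE 0.64, adjusted p = 0.00461 in edgeR), Cd63 by 2.80, Cd9, a tetraspanin, by 1.73, and the lysosomal protease gene Ctsd by 0.63. Several of these, Lpl, Cd9, Cd63, and Ctsd among them, are also made by other liver or tumor cells. Of 12 further Kupffer cell genes 0 rose and 1 fell, Id3, a transcription regulator needed by Kupffer cells, at 79.0 to 175 CPM in the livers and 6.89 to 47.3 CPM in the tumors (-2.10, SE 0.41, adjusted p = 0.00712 in edgeR). Id3 was also lower in T-HCC663, at 45.6 against 100 CPM in its liver, where the resident markers were higher. Which cells made it was not tested. Spic drives iron handling in red pulp and Kupffer macrophages. Its levels were 25.7 CPM against 2.26 CPM in the own liver in T-HCC663, 6.62 against 0.918 in T-HCC662, and 3.24 against 2.27 in T-HCC941. They were 20.2 against 13.1 in TCi-HCC981, 1.76 against 1.45 in T-HCA992, and 1.99 against 0.436 in TCi-HCA984. Spic was thus above the own liver in every mouse, as 11% of genes were, with an adjusted p of 0.291 over all tumors in edgeR. It was named after its values had been seen.

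Of 16 general macrophage genes, Cd14, a receptor for bacterial lipopolysaccharide, rose (3.98, SE 0.83, adjusted p = 0.00987 in edgeR), and the median log2 fold change of the list was 0.68. Their summed level was 213 to 1632 CPM in the livers and 443 to 1913 CPM in the tumors. None of the 10 monocyte and neutrophil genes tested, 6 dendritic cell genes, and 7 lymphocyte genes passed over all tumors in edgeR. Their medians were 0.29, 0.43, and 0.73, and the part of these cells in the members' levels was not tested. Of the other cell types, 1 of 9 sinusoidal endothelial genes rose (Pecam1, 1.59, SE 0.37, adjusted p = 0.0176 in edgeR), 0 of 7 stellate and 0 of 4 bile duct genes passed, and 1 of 6 hepatocyte genes fell. These lists moved with the driver class. In the Ctnnb1-mutated tumors against livers, 3 of 7 stellate genes (Des, Dcn, and Lrat, median of the list -2.12), 1 of 4 bile duct genes (Sox9), and 2 of 6 hepatocyte genes (Serpina1c and Tat) fell in edgeR. Against the other tumors, Pecam1 (-1.49) and Kdr (-1.93) of the endothelial list, Des (-2.09), Sox9 (-3.48), Alb (-2.46), and Serpina1c (-2.35) were lower in them, with adjusted p-values in edgeR from 0.000601 to 0.0456. The part of these cells in the members' driver-class values was not tested.

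Among signals that feed macrophages, 2 of 8 tested were called higher over all tumors. Dll4, the endothelial Notch ligand of the Kupffer niche, was at 1.596 (SE 0.43, adjusted p = 0.0315 in edgeR). Cx3cl1, a chemokine for monocytes, was at 2.62 (SE 0.46, adjusted p = 0.00423 in edgeR). In T-HCC663 Dll4 was below its own liver, at 4.91 against 8.19 CPM, and in each other tumor it was above. Csf1 was at 15.7 to 23.8 CPM in the livers and 14.9 to 28.7 CPM in the tumors (0.21, SE 0.18, adjusted p = 0.506 in edgeR). Gdf2 (BMP9) had a value of -1.48 (SE 0.55, adjusted p = 0.102 in edgeR) and was lowest in T-HCC662, at 0.451 CPM against 9.68 CPM in its liver. Tgfb1 was at 0.87 (adjusted p = 0.197 in edgeR), and Bmp10 had at most 0.966 CPM in any library and was not tested. Il34, a second ligand of Csf1r, was lower in Ctnnb1-mutated than in other tumors (-3.04, SE 0.74, adjusted p = 0.0237 in edgeR). It was at 0.876 CPM (20 counts) in T-HCC663 and 0.270 CPM (6 counts) in T-HCC662. The other 4 tumors had 2.70 to 9.65 CPM, and the livers 0.969 to 2.97 CPM. Mif, which encodes macrophage migration inhibitory factor, was higher in Ctnnb1-mutated than in other tumors (1.03, SE 0.20, adjusted p = 0.00904 in edgeR). Cd9 was lower in that comparison (-1.90, SE 0.51, adjusted p = 0.0346 in edgeR). Hpgd, a prostaglandin-degrading enzyme on the list of further Kupffer cell genes, was also higher (1.47, SE 0.44, adjusted p = 0.0483 in edgeR). It was at 130 CPM in T-HCC663 and 89.4 CPM in T-HCC662, which lay on opposite sides of their own livers for the resident markers. In TCi-HCC981, with the highest resident sum of the tumors, it was at 40.1 CPM. Which cells made Hpgd was not tested.

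As a description over the 12 libraries, which share depth and tissue composition, the genes whose log2 CPM followed 3 members most closely were listed by Pearson's r among 13822 genes. For Clec4f they were Folr2 (0.954), Vsig4 (0.946), Timd4 (0.921), Slc16a9 (0.915), and Ptger2 (0.912), so 3 of 5 were members. For Gpnmb they were Spats2 (0.967), Ctsd (0.961), Mmp12 (0.952), Plscr1 (0.952), and Mllt3 (0.951), 2 of which are on the lipid-associated list. For Trem2 they were Ano6 (0.903), Rps19 (0.886), Ccr3 (0.879), Wdr3 (0.872), and Misp (0.872), and no member or gene of the lists was among them. T-HCC663, which holds the highest Trem2 value, weighs on the last set.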

How the data were processed

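The deposited values are whole-number counts of reads per gene symbol in 12 libraries, without normalization. The authors aligned paired poly(A) reads to mm10 with Subread and counted them with featureCounts (1.6.4 in the submitters' notes); the sequencing run that they corrected for is not given per sample and was not used. Samples were grouped by the labels' genotype and tissue, and driver classes come from the study's text. Same-numbered samples come from 1 mouse, which pairs them. As a check, each tumor and each liver was taken as its deviation from the mean of all tumors or all livers. A tumor and its own liver then correlated with r from 0.0742 to 0.448 (median 0.315). Livers of other mice, of both genotypes, had a median r of -0.0454. The own liver shares the genotype of its tumor, so this check cannot tell pairing from genotype. The own liver was the best match in 4 of 6 mice, and for the T-HCC663 mouse its r (0.0742) was no higher than the median of the other livers (0.0750). Libraries of a group are separate mice.

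Counts were scaled (TMM), filtered (filterByExpr), and tested with edgeR 4.0.16 in R 4.3.3 in 3 models (tissue; driver class; genotype by tissue), each with all 12 libraries, and 9 comparisons. The SE is the log2 fold change divided by the square root of F. CPM uses TMM-scaled library sizes, and differences between a tumor and its own liver use log2(CPM + 1). Calls were tested on simulated data. Alternatives were DESeq2 1.42.0, RLE factors, total counts, every gene with a count, the mouse as a block (also without the T-HCC662 pair), only the groups compared, a pseudocount of 0.1, the mean of the livers as reference, and each library left out. The members, lists, and comparisons were chosen with earlier results of these data known. Genes named beside the members are list genes past the threshold over all tumors or between driver classes, at most 4 per list, the 5 most alike to Clec4f, Trem2, and Gpnmb, and 6 niche signals; a result for 1 general macrophage gene is not reported here. Positions are from GENCODE vM21, copies were sought with minimap2, and promoters are RefSeq's. Intervals and floors cover counting error only.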

Additional observations from a re-analysis of the deposited data

Results flagged for a closer look

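Among the 6 livers and the 6 tumors, the highest library stood far from its neighbors for several markers. By Dixon's criterion at 95%, applied to CPM without a log scale, 12 of 20 sets of 6 values held such a library. Chance gives about 1 in 20 sets only for normally distributed values, which was not checked for CPM. The sets also share the same libraries, so this count is a description. The liver of the TCi-HCC981 mouse was far above the other livers for 6 markers, with 439 CPM for Clec4f, 22.4 CPM for Timd4, 481 CPM for Cd5l, 95.7 CPM for Vsig4, 31.5 CPM for Adgre1, and 42.9 CPM for Folr2. TCi-HCC981 itself was far above the other tumors for Cd5l (427 CPM) and Adgre1 (43.4 CPM). T-HCC663 was far above the other tumors for Timd4 (7.98 CPM), Marco (22.3 CPM), C1qa (325 CPM), and Trem2 (28.0 CPM). The general macrophage genes were also high in these 3 libraries, and what set them apart was not tested.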

How the results depend on the processing

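Gpnmb kept its direction and call over all tumors under each alternative and each left-out library. Of 10 members, 1 was called over all tumors in the reported fit, and 2 with DESeq2, RLE factors, or total counts, 4 with the mouse as a block (replicate block), 3 with scaling to macrophage genes, and 1 to 3 with a library left out. For Ctnnb1-mutated tumors (2) the count was 0 with the block without the T-HCC662 pair and with macrophage scaling, and 1 to 3 with a library left out. For the other tumors (2) it was 5 with the same block, 1 without the TCi-HCC981 mouse, and 1 to 3 with a library left out. Between driver classes (0) it was 1 in DESeq2 and 0 to 2 with a library left out, within p21Tert (1) it was 2 in DESeq2 and 0 to 3, and within p21TertCi (0) it was 1 in DESeq2. Over all tumors the block called Timd4, Marco, and Trem2 beside Gpnmb, and in Ctnnb1-mutated tumors it also called C1qa. Against the mean of the livers, 4 members were higher in T-HCA992 (2 against its own) and 8 in TCi-HCC981 (3), and with mean log2(CPM + 1) the resident markers of TCi-HCC981 were at -1.82 against -0.70 for the sum. Signs changed for Vsig4 (0.13 with total counts, 0.25 without the TCi-HCC981 mouse, -0.77 to 0.99 with a library left out), Adgre1 (-0.025 with macrophage scaling, -0.074 to 1.44), Cd5l (-1.23 to 0.84), and Folr2 (-1.50 to 0.25) over all tumors, and for C1qa in the other tumors (-0.40 with macrophage scaling, -0.33 to 0.57). Between driver classes they did for Gpnmb (0.41 with the block), Timd4 (-4.27 to 3.01), Marco (-7.65 to 4.09), and Trem2 (-0.022 to 2.66), and also for Marco in the interaction (-4.25 to 0.49) and Vsig4 between livers (-0.15 without the TCi-HCC981 mouse, -0.19 to 2.79). The cause was not tested. Leaving out 1 tumor of a class of 2 assumes that the other varies like the rest. Over all genes, 1486 were called in all tumors (629 with macrophage scaling, 2407 in DESeq2), 1249 in Ctnnb1-mutated tumors (522 and 2126), 3439 in the others (1231 and 4355), 1910 between classes (400 and 3111), and 982 within p21Tert (431 and 2109). Total counts moved the median of all genes to 0.20. Under about 0.1 CPM a gene rests on 1 or 2 counts.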
